A study of Mus musculus with 2 samples.

Results

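The microRNA families miR-34/miR-449 and miR-204/miR-211 were followed in the midbrain of newborn mice as 8 hairpin genes: Mir34a, Mir34b, Mir34c, Mir449a, Mir449b and Mir449c in the first family, and Mir204 and Mir211 in the second. They were chosen by gene name as members of these families, and all 8 were found among the 1973 genes of the deposited count tables. The series holds 1 group of 2 libraries, from pup 3 and pup 1, each made from total RNA of the midbrain of 1 mouse of strain B6NCrl on postnatal day 0. The pups carry no named allele or treatment, their sex was not collected, and a single donor identifier stands on both labels, which name different pups. The single group allows no contrast of conditions, so the data give the level of each hairpin and the spread between these libraries.

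MicroRNAs are short RNAs cut from the arms of a hairpin precursor, and they repress messenger RNAs that pair with their seed, bases 2 to 8 from the 5′ end. In mice the miR-34/miR-449 family is abundant in multiciliated cells, among them the ependyma that lines the brain ventricles and the epithelia of airway and oviduct, and loss of its loci together impairs the formation of motile cilia. The miR-204/miR-211 family is abundant in the choroid plexus, the secretory epithelium of the ventricles, and in the retinal pigment epithelium. Its hairpins lie in the Trpm3 and Trpm1 genes, which encode cation channels. Mir34a is, in addition, a known target of the tumour suppressor p53.

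The mature sequences of the 5′ arms are shown because the seed, in capitals, is what each family shares. They are from RefSeq on GRCm38.p6, which held a 5′ arm sequence for 6 of the 8 members. Mir449b and the 5′ arm of Mir34c had no entry.
miR-34a-5p: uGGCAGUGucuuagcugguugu
miR-34b-5p: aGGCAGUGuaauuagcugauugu
miR-449a-5p: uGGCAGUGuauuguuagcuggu
miR-449c-5p: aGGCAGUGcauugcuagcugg
miR-204-5p: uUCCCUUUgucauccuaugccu
miR-211-5p: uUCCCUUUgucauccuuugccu
The 4 sequences of miR-34/miR-449 had the same seed, and both of miR-204/miR-211 had another. Among the 1738 mature sequences of the table, no sequence outside the family had the miR-34/miR-449 seed. The miR-204/miR-211 seed was also found in miR-7670-3p, whose hairpin Mir7670 had 0 counts in both pups. Of the 3′ arms, that of miR-204 had its seed in common with miR-7684-5p, whose hairpin Mir7684 was also at 0 counts in both pups. Past the seed, miR-34a-5p and miR-449a-5p held a common run of 9 bases, uuagcuggu, at different positions. The 5′ arms of miR-204 and miR-211 differed by a single substitution, A17U, with positions counted from the 5′ end and the base of miR-204 given first.

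The 3′ arms of the Mir34b and Mir34c hairpins are shown because they share a seed of their own, found in no other mature sequence of the table.
miR-34b-3p: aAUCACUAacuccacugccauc
miR-34c-3p: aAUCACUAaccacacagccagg
The counts are per hairpin, so reads from the 5′ arm and from the 3′ arm were not told apart.

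The whole precursors of both miR-204/miR-211 hairpins show how far the genes differ outside the 5′ arm, which is in capitals. The lowercase part includes the mature 3′ arm of each hairpin.
Mir204: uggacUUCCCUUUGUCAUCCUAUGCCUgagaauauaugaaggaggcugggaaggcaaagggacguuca
Mir211: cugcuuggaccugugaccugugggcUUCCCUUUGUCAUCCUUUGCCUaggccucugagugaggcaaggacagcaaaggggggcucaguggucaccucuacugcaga
Their longest common run was 17 bases. No member of miR-34/miR-449 shared a run of over 14 bases with another annotated microRNA hairpin. This bears on the values, since a read that maps to several places was counted in no gene. Other copies in the genome outside the annotated hairpins were not searched for.

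In pup 3 the table accounts for 7382778 reads, 3195277 of them on the own strand of a gene, and in pup 1 for 5461825 reads, 2337113 of them on the own strand. Reads mapping to several places made up 39.8% in pup 3 and 38.7% in pup 1. Levels are own-strand counts scaled to a total of 1000000 over genes in each pup (CPM), and a count of 0 would allow up to 0.939 CPM in pup 3 against 1.28 CPM in pup 1. Intervals cover counting error only, at the 95% level. More than sampling noise separated the libraries over the 286 hairpins with a mean count of at least 50 (chi-square 33249 on 285 degrees of freedom). Of the lists of hairpins that mark other cell types, the neuronal list summed to 49205 CPM in pup 3 against 44203 CPM in pup 1 with 8 of 11 members detected, led by Mir137. The neuronal hairpins differed in direction. By CPM, among those with a mean count of at least 50, Mir137, Mir153 and Mir212 were higher in pup 3. Mir128-1, Mir128-2, Mir132 and Mir9-3 were lower, with Mir128-1 at 7512 CPM in pup 3 against 7885 CPM in pup 1. The endothelial hairpin Mir126a had 30095 CPM in pup 3 against 36188 CPM in pup 1, and the mural list, led by Mir143, summed to 7330 CPM in pup 3 against 7458 CPM in pup 1. The oligodendrocyte list, led by Mir338, summed to 1549 CPM in pup 3 against 1656 CPM in pup 1. Mir338 itself was higher in pup 3, at 791.5 CPM against 748.4 CPM in pup 1. Mir219a-2, at 581.8 CPM in pup 3 against 718.4 CPM in pup 1, and Mir219a-1, at 175.6 CPM against 189.6 CPM, were lower. The microglia and leukocyte list, led by Mir150, summed to 597 CPM in pup 3 against 668 CPM in pup 1. Of that list 4 of 5 hairpins were matched, and Mir142 was not found by that name. Mir150, Mir146 and Mir155 were lower in pup 3 by CPM, and Mir223 was higher, at 169.3 CPM against 164.3 CPM in pup 1. The erythroid list, led by Mir451a, summed to 74.2 CPM in pup 3 against 125 CPM in pup 1. Its hairpins differed in direction, with Mir451a at 30.98 CPM in pup 3 against 86.43 CPM in pup 1. Mir144 went the other way, at 29.11 CPM in pup 3 against 20.11 CPM in pup 1. For Mir144 the counting interval of the log2 ratio of pup 3 over pup 1, -0.037 to 1.022, included 0. That of Mir451a, -1.891 to -1.175, did not. Liver Mir122 had 47.9 CPM in pup 3 against 58.6 CPM in pup 1. The muscle list, led by Mir206 and with 6 of 7 hairpins matched, summed to 49.8 CPM in pup 3 against 41.9 CPM in pup 1. Its Mir1a-1, Mir133a-1 and Mir133a-2 were at 0 counts in both. Since a read that maps to several places was counted in no gene, a 0 at a hairpin with copies does not show absence. The same limit applies to hairpins with copies on the neuronal list. No messenger RNA was measured, so the cells the members came from could not be checked against protein-coding markers of ependyma or choroid plexus.

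Of the 8 members 6 were detected, with at least 10 own-strand counts in each pup, while 18.2% of all 1973 genes were detected. Together the 8 held 0.440% of the own-strand counts in pup 3 (exact Clopper-Pearson interval 0.432 to 0.447) and 0.404% in pup 1 (0.396 to 0.412). The miR-34/miR-449 family held 0.321% in pup 3 (0.315 to 0.327) and 0.268% in pup 1 (0.261 to 0.275), a mean of 0.295% ± 0.0375 (SD, n = 2). The miR-204/miR-211 family held 0.119% in pup 3 (0.115 to 0.123) and 0.136% in pup 1 (0.131 to 0.141), a mean of 0.127% ± 0.0122 (SD, n = 2). The miR-34/miR-449 share was thus the larger of these in each pup, and the intervals of the families did not overlap.

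**Figure D1:**
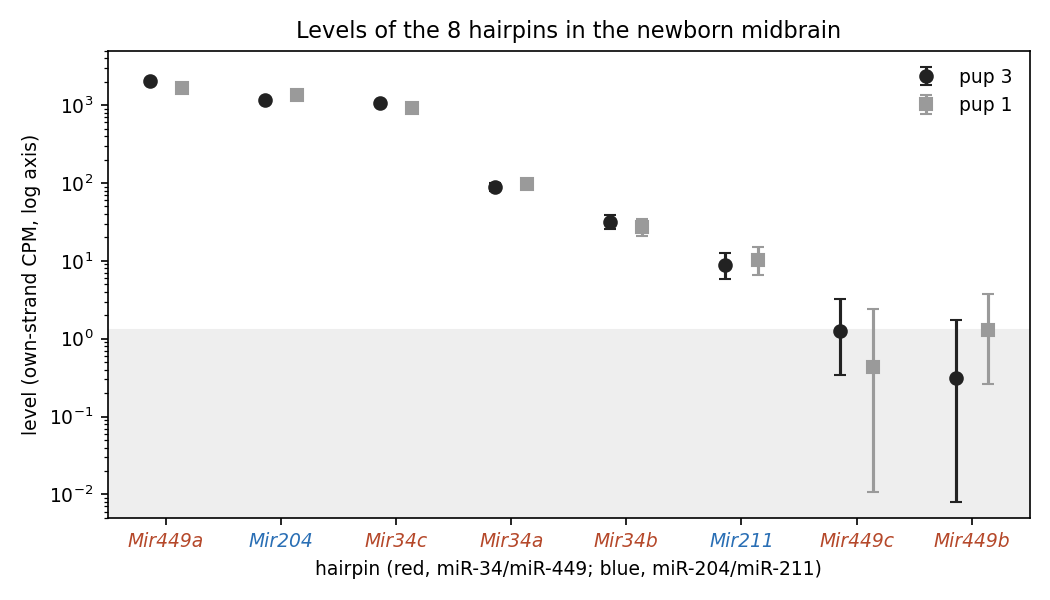
Level of each hairpin in CPM on a log axis, by hairpin in falling order of mean level, for pup 3 (circles) and pup 1 (squares), with exact Poisson 95% counting intervals and the range allowed by a count of 0 in pup 1 shaded. Mir449a, Mir204 and Mir34c lie between 907 and 2038 CPM, and Mir449c and Mir449b reach at most 1.28 CPM.

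In the miR-34/miR-449 family, Mir449a was the most abundant member, with 6512 counts or 2038 CPM in pup 3 and 3849 counts or 1647 CPM in pup 1. Its mean of 1842 CPM ± 277 (SD, n = 2) placed it at rank 82 of 1973 genes. Mir34c followed with 3360 counts or 1052 CPM in pup 3 and 2120 counts or 907 CPM in pup 1, a mean of 979 CPM ± 102 and rank 100. Both were higher in pup 3, and the levels of Mir449a were above those of Mir34c in both pups. Mir449a made up 63.5% of the counts of its family in pup 3 and 61.4% in pup 1, and Mir34c 32.7% in pup 3 and 33.8% in pup 1.

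Mir34a, the member that stands alone in the genome, had 281 counts or 87.9 CPM in pup 3 and 227 counts or 97.1 CPM in pup 1, a mean of 92.5 CPM ± 6.50 and rank 228. Its counting intervals, 78.0 to 98.9 CPM in pup 3 and 84.9 to 111 CPM in pup 1, overlapped. It supplied 2.74% of the family's counts in pup 3 and 3.62% in pup 1. By CPM, Mir449a exceeded Mir34a 23.2-fold in pup 3 and 17.0-fold in pup 1, and Mir34c exceeded it 12.0-fold in pup 3 and 9.34-fold in pup 1. Mir34a on GRCm38 (ENSMUSG00000065493.1) lies on the plus strand of chromosome 4 from 150068454 to 150068555. Its 3′ end overlaps an exon of Gm37795, a gene model of unproven status on the same strand.

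Mir34b and Mir34c lie on the minus strand of chromosome 9, Mir34b (ENSMUSG00000065492.1) from 51103562 to 51103645 and Mir34c (ENSMUSG00000065587.1) from 51103034 to 51103110, 451 bases apart. They overlap an intron of a transcript of Btg4, which runs on the opposite strand. Mir34b had 102 counts or 31.9 CPM in pup 3 and 64 counts or 27.4 CPM in pup 1, a mean of 29.6 CPM ± 3.21 and rank 274. Mir34c, from the same locus, had 32.9 times as many counts as Mir34b in pup 3 (interval 27.1 to 40.5) and 33.1 times as many in pup 1 (25.8 to 43.2). As a share of the locus, Mir34c held 97.05% in pup 3 and 97.07% in pup 1. The split between the neighbours was thus nearly equal in the pups, while the level of Mir34c was higher in pup 3. The counting intervals of Mir34b, 26.03 to 38.75 CPM in pup 3 and 21.09 to 34.97 CPM in pup 1, overlapped. Opposite-strand reads, which could come from Btg4 or another antisense transcript, were 0 at Mir34c in both pups, and at Mir34b 0 in pup 3 and 2 in pup 1.

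The Mir449 hairpins lie on the plus strand of chromosome 13 in intron 2 of every overlapping transcript of Cdc20b, a gene expressed in multiciliated cells. Mir449c (ENSMUSG00000076146.1) lies from 113035983 to 113036091, Mir449b (ENSMUSG00000078027.1) from 113037419 to 113037498 and Mir449a (ENSMUSG00000065575.1) from 113037534 to 113037624. Only 35 bases separate Mir449b from Mir449a. Mir449c had 4 counts or 1.25 CPM in pup 3 and 1 count or 0.428 CPM in pup 1. Mir449b had 1 count or 0.313 CPM in pup 3 and 3 counts or 1.28 CPM in pup 1. Neither was detected, their counting intervals overlapped each other in both pups, and their order reversed between pups. Mir449a held 99.92% of the locus in pup 3 (99.82 to 99.98) and 99.90% in pup 1 (99.73 to 99.97).

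The precursors of Mir449a and Mir449c are shown because they lie in 1 intron and have the same seed, yet Mir449a reached 6512 counts in pup 3 where Mir449c had 4, and 3849 counts in pup 1 where Mir449c had 1. The 5′ arm is in capitals.
Mir449a: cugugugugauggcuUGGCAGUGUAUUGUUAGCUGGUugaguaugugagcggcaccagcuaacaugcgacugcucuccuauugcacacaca
Mir449c: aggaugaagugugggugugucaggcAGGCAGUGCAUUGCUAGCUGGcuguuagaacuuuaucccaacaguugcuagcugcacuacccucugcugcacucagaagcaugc
Of the 21 positions that both 5′ arms have, 18 held the same base.

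**Figure D2:**
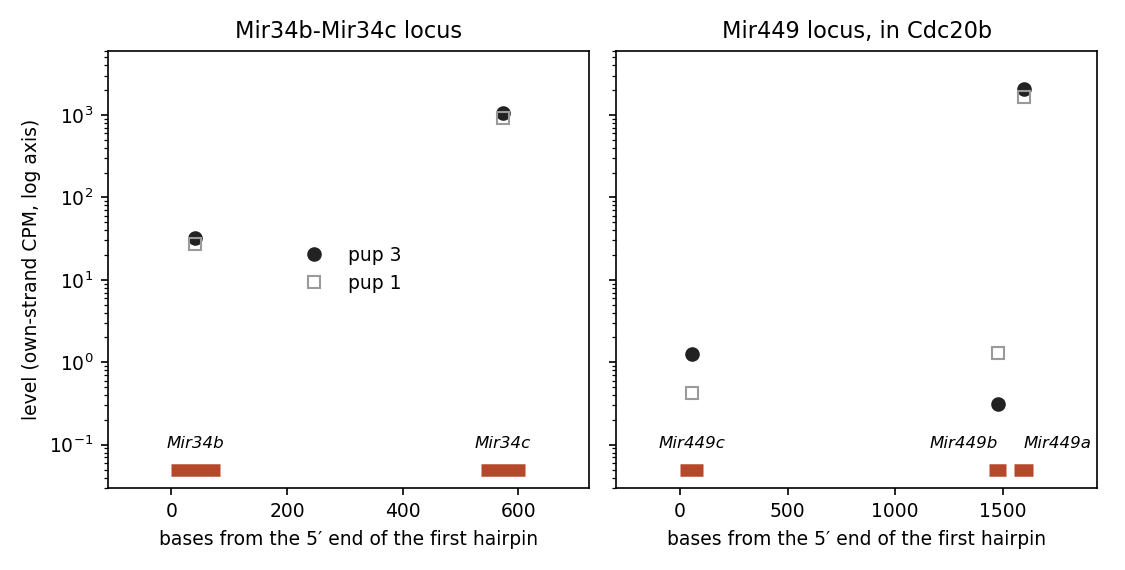
Level in CPM on a log axis against the distance in bases from the 5′ end of the first hairpin, in the direction of transcription, at the Mir34b-Mir34c locus (left) and the Mir449 locus (right), for pup 3 (filled circles) and pup 1 (open squares), with the hairpins drawn to scale as bars at the bottom. The last hairpin of each locus, Mir34c or Mir449a, holds nearly all of the counts, and Mir449b lies 35 bases before Mir449a.

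Set beside other loci, the Mir449 locus was among the most uneven. Of 52 clusters of at least 2 hairpins within 10 kb on 1 strand and a mean summed count of at least 50, the median share of the leading hairpin was 86.9%. The Mir449 locus was at place 4 from the top and, at 99.9%, first of the 5 clusters of 3 hairpins, whose median was 70.7%. The Mir34b-Mir34c locus was at place 17 of the 52 and at place 16 of the 37 clusters of 2 hairpins, whose median was 95.2%. Some other clusters hold hairpins that share mature sequence with another locus, whose reads were therefore lost, so this order is a description and was not tested.

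**Figure D3:**
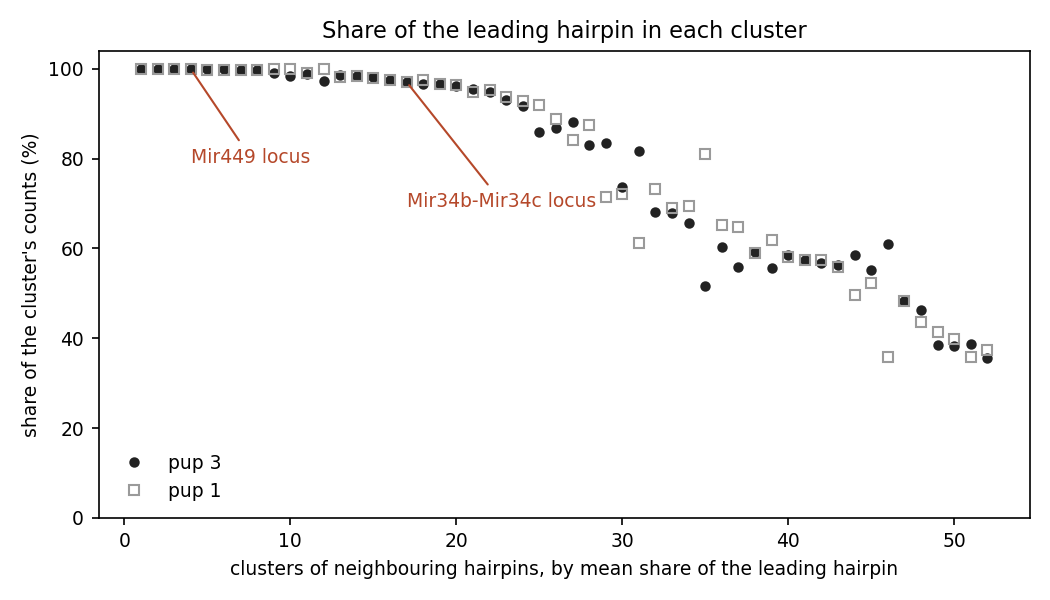
Share in percent of the leading hairpin in the own-strand counts of each of 52 clusters of neighbouring hairpins, in falling order of the mean, for pup 3 (filled circles) and pup 1 (open squares). The Mir449 locus is at place 4 and the Mir34b-Mir34c locus at place 17.

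In the miR-204/miR-211 family, Mir204 had 3764 counts or 1178 CPM in pup 3 and 3154 counts or 1350 CPM in pup 1, a mean of 1264 CPM ± 121 (SD, n = 2) and rank 91. It was lower in pup 3, where Mir449a and Mir34c were higher. Mir211 had 28 counts or 8.76 CPM in pup 3 and 24 counts or 10.3 CPM in pup 1, a mean of 9.52 CPM ± 1.07 and rank 315. Its counting intervals, 5.82 to 12.7 CPM in pup 3 and 6.58 to 15.3 CPM in pup 1, overlapped. Mir204 thus had 134 times the counts of Mir211 in pup 3 (interval 92.9 to 203) and 131 times in pup 1 (88.2 to 205). As a share of the pair, Mir204 held 99.3% in pup 3 and 99.2% in pup 1.

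Both hairpins lie on the plus strand in introns of their Trpm hosts, as read from GENCODE M21. Mir204 (ENSMUSG00000065507.2 in the tables) lies on chromosome 19 from 22750605 to 22750672, within Trpm3 and intronic in all 18 overlapping transcripts. Mir211 (ENSMUSG00000065585.1) lies on chromosome 7 from 64205806 to 64205911, within Trpm1 and intronic in all 12. In mice Trpm1 is known for its expression in melanocytes and in retinal bipolar cells. Neither hairpin had an opposite-strand count in either pup.

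Across both families the order by mean CPM was Mir449a, Mir204, Mir34c, Mir34a, Mir34b, Mir211, Mir449c and Mir449b. The first 6 kept this order in each pup, and no 2 neighbours among them had ranges over the pups that overlapped, whereas Mir449c and Mir449b could not be ordered. Annotated hairpins differ in length, from 68 bases for Mir204 to 109 for Mir449c, although a read of under 30 bases is a mature arm and not a sample of the whole hairpin. Per 100 bases of hairpin, Mir449a had 2240 CPM in pup 3 against 1810 CPM in pup 1, and Mir204 had 1732 CPM in pup 3 against 1985 CPM in pup 1. On that scale, chosen after seeing the data, the first places were exchanged in pup 1 and the ranges overlapped, so which of Mir449a and Mir204 was higher depended on the scale. Per 100 bases Mir34c, with 1366 CPM in pup 3 against 1178 CPM in pup 1, stayed below both in each pup.

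**Figure D4:**
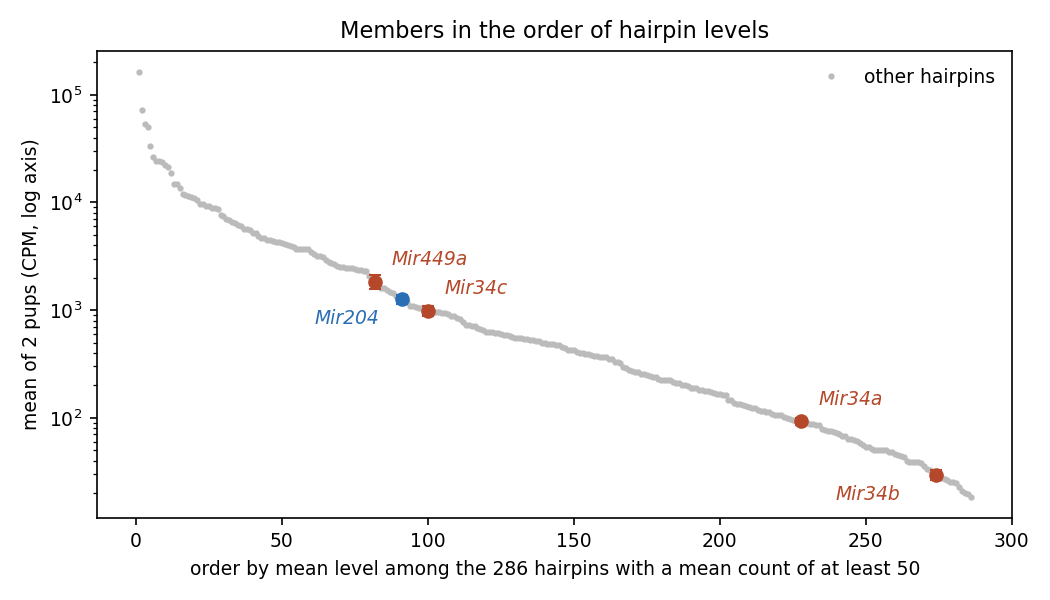
Mean level of the 2 pups in CPM on a log axis against the order among the 286 hairpins with a mean count of at least 50, with the members coloured (red, miR-34/miR-449, and blue, miR-204/miR-211) and their SD as bars. Mir449a, Mir204 and Mir34c lie at ranks 82, 91 and 100, and Mir34a and Mir34b at ranks 228 and 274.

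The hairpins nearest in level to the leading member of each family were found by their distance in log2(CPM + 1) over the 2 libraries, a measure that with 2 libraries reflects level more than pattern. Nearest to Mir449a was Mir341 at 1816 CPM in pup 3 against 1528 CPM in pup 1, followed by Mir467e at 1710 CPM in pup 3 against 1502 CPM in pup 1 and Mir300 at 2170 CPM in pup 3 against 1988 CPM in pup 1. Nearest to Mir204 was Mir425 at 1149 CPM in pup 3 against 1292 CPM in pup 1, followed by Mir467d at 1170 CPM in pup 3 against 1219 CPM in pup 1 and Mir15b at 1370 CPM in pup 3 against 1210 CPM in pup 1. In the order of all genes, the hairpins next to Mir449a, Mir204 and Mir34c overlapped them in their ranges over the pups. Above Mir449a stood Mir138-1, with 1739 CPM in pup 3 against 2091 CPM in pup 1, so the place of Mir449a beside it is not settled by 2 pups. Next to Mir34c stood Mir320, with 983 CPM in pup 3 against 1021 CPM in pup 1, and Mir376c, with 1058 CPM in pup 3 against 883 CPM in pup 1.

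Between the pups the 5 members tested differed by less than 2-fold. The ratio of pup 3 to pup 1 was taken after TMM scaling of the libraries and each gene was tested by Fisher's exact test on its reads, which compares these libraries and has no replicate check. Fisher's test took the library totals as they are, without TMM, so a gene with a small ratio can lie on one side by the test and on the other by the ratio. Of the 8 members 5 were among the 286 genes tested, which had a mean count of at least 50. A call took a ratio of 2-fold or more and an adjusted p (Benjamini-Hochberg) below 0.05. None of the 5 was called, against 1.75% of all genes tested. At so low a share, 0 of 5 does not set the members apart from other genes. Mir449a had a log2 ratio of 0.26 (counting interval 0.20 to 0.32), Mir34c of 0.16 (0.09 to 0.24) and Mir34b of 0.17 (-0.29 to 0.65). Mir204 had a log2 ratio of -0.25 (-0.31 to -0.18) and Mir34a of -0.19 (-0.45 to 0.07). Thus the clustered hairpins Mir449a and Mir34c were higher in pup 3 and Mir204 was lower, each beyond counting error, while the intervals of Mir34a and Mir34b included 0.

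At any fold, 3 of the 5 had an adjusted p under 0.05 by Fisher's exact test, the same 3 as at an unadjusted p under 0.05. Mir449a (2.65e-25) and Mir34c (2.75e-07) were higher in pup 3, as were 35.3% of all genes tested, and Mir204 (6.50e-08) was lower in pup 3, as were 22.0%. Those shares rest on totals without TMM, and after TMM scaling the counting interval of the ratio lay wholly above 0 in 30.4% of the genes, Mir449a and Mir34c among them, and wholly below 0 in 29.0%, Mir204 among them. Differences beyond counting error were therefore common in both directions. The median absolute log2 ratio was 0.19 over the 5 members and 0.15 over all 286 genes. The largest of the 5, that of Mir449a, exceeded the absolute ratio of 207 of the 286 genes. Mir211, Mir449b and Mir449c were below the count minimum and have no ratio here.

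Among hairpins that mark other epithelial cells, those of the miR-200 family differed between the pups. The epithelial list, which was matched in full with 5 of 7 members detected and none at 0, summed to 1252 CPM in pup 3 against 666 CPM in pup 1, a ratio of 1.88. Its most abundant hairpin, Mir203, differed little, at 625 CPM in pup 3 against 550 CPM in pup 1. Mir205 had 32.55 CPM in pup 3 against 20.97 CPM in pup 1, and neither Mir203 nor Mir205 was called. The 5 hairpins of the miR-200 family, which is typical of epithelia, summed to 594 CPM in pup 3 against 94.99 CPM in pup 1, a ratio of 6.25. Of these, Mir429 stood at 308 CPM in pup 3 against 53.9 CPM in pup 1, Mir200c at 123 CPM in pup 3 against 19.7 CPM in pup 1 and Mir200b at 118 CPM in pup 3 against 18.0 CPM in pup 1, and these 3 were among the 5 genes called. Mir200a, with 81 counts in pup 3 against 4 in pup 1, and Mir141, with 64 in pup 3 against 4 in pup 1, were under the count minimum for the test. The sensory and pineal list of Mir182, Mir183 and Mir96 summed to 614 CPM in pup 3 against 401 CPM in pup 1, a ratio of 1.53, led by Mir182. The summed level of the miR-34/miR-449 family had a ratio of 1.20 and that of miR-204/miR-211 of 0.873, on the same CPM scale. The part of such cells in the levels of the members was not tested. In a bulk sample, fewer cells of a type and less of a microRNA per cell cannot be told apart.

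**Figure D5:**
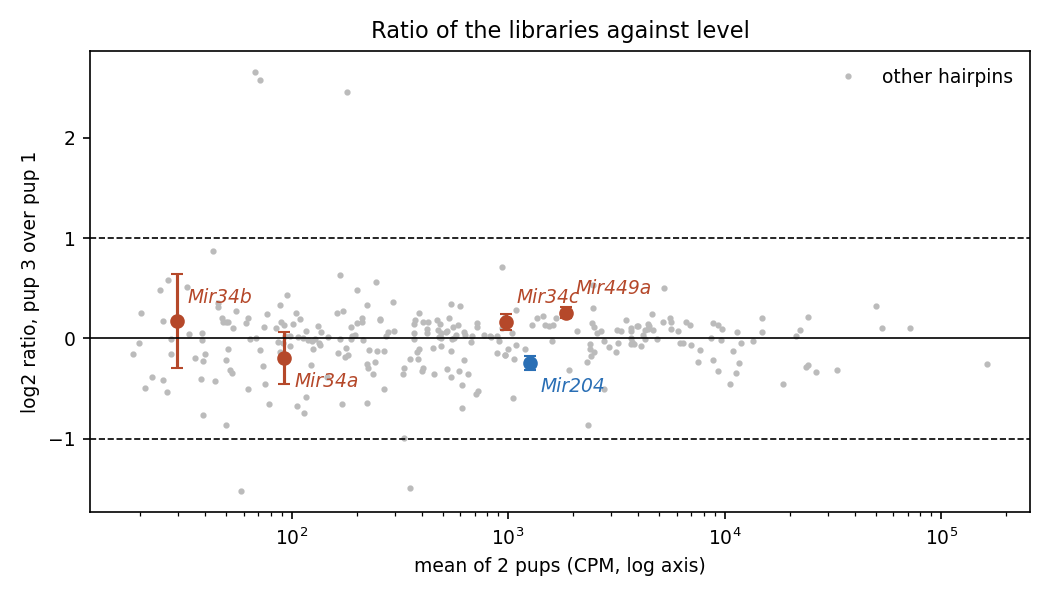
Log2 ratio of pup 3 over pup 1 after TMM scaling against mean level in CPM on a log axis for the 286 hairpins tested, with the 5 tested members coloured (red, miR-34/miR-449, and blue, Mir204) and their 95% counting intervals as bars. The members lie between -0.25 and 0.26, within the dashed lines of a 2-fold difference.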

How the data were processed

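MicroRNA libraries of 2 midbrains were analysed. The authors deposited raw counts per gene, made from alignments to mm10 with the GENCODE M4 annotation, per the description deposited with each library. Which aligner and counter they used is not given in the sources used here. Every table has 3 count columns, for either strand, the own strand and the opposite strand, and the own-strand column was used. The 4 rows that name no gene took 56.7% of the reads in pup 3 and 57.2% in pup 1 and stayed out of totals and tests.

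Gene identifiers were matched without versions to GENCODE M21 on GRCm38, which is mm10, and 1894 of 1973 had a symbol. Sequences are from RefSeq on GRCm38.p6. Ratios used TMM factors (edgeR 4.0.16) and a prior count of 0.5, with DESeq2 1.42.0 size factors as an alternative. Intervals are exact, from scipy 1.17.1. The comparison was run on simulated data first, with sampling noise only, the true scaling in place of TMM and changes larger than any member's ratio. That simulation therefore does not cover a spread between pups or ratios as small as those of the members. Named genes were all members, sequences with the seed of a member's arm, the 3 nearest detected hairpins of each leading member and the leader of each list. The hairpins next in order to Mir449a and Mir34c, and members of a list other than its leader, were named after their values were seen. Members, lists and tests were chosen with earlier results of these data known. The pups are biological replicates per the labels.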

Additional observations from a re-analysis of the deposited data

How the results depend on the processing

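Alternatives were other strands, denominators, count minimums, scalings, prior counts and fold thresholds, and each pup alone, and the length scale was added after seeing the data. A reversal of direction was looked for only in the 20 alternative log2 ratios, and none reversed. Of 56 alternative values over 13 results, 49 were taken as unchanged. For a log2 ratio this meant the same direction and side of the threshold. For a count of members it meant staying within 1.5 times the main count. For a share or a ratio of levels it meant moving by less than the SD of the pups. A share or ratio from 1 pup alone always moves by less than that SD, so those alternatives could not fail and show no robustness. With the total taken without Mir99a, the most abundant gene, the miR-34/miR-449 family held 0.351% and miR-204/miR-211 0.152%, and with all rows of the tables as the denominator 0.127% and 0.0548%, since the denominator itself changed. With either-strand counts Mir34c held 97.0% of its locus, owing to the 2 opposite-strand reads at Mir34b. The count of members called was 0 with the 2-fold rule under every scaling, strand, prior and count minimum run and with a 1.5-fold rule, and 3 with the adjusted p alone. The ratio of Mir449a to Mir204, 1.48 by CPM as the mean of the pups, was 1.10 per base of hairpin. Per base it was 1.29 in pup 3 and 0.912 in pup 1, so the order was reversed in pup 1. Detected members numbered 8 with at least 1 count, 6 with 5 and 5 with 50. No paired analysis was possible because there is 1 group. A pair of pups does not bound the spread between animals, and Mir449b and Mir449c are at the limit of the depth.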
